A study of Mus musculus with 21 samples.

Results

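Nonproductive receptor clonotypes are rearranged T cell receptor sequences that cannot encode a full chain, because the joined segments are out of frame or because the junction holds a stop codon. They were taken from clonotype tables of the receptor alpha chain (TRA) and beta chain (TRB) as every sequence whose translated CDR3, the junction between the V and J segments, carried a frame-shift mark or a stop mark. This gave 4715 of 47151 clonotypes, of which 3849 were among 26858 TRA clonotypes and 866 among 20293 TRB clonotypes. RNA of mouse spleen T cells had been sequenced in bulk in 21 libraries. TX2 (7 libraries) and TX1 (4 libraries) held donor cells after a second and a first transplantation of Tet2/3 DKO CD4 T cells into CD45.1+ recipients, sorted as live CD45.2+ CD45.1- cells. DKO (5 libraries) held peripheral CD4 T cells of mice that lack Tet2 in all cells (Tet2-/-) and in which CD4cre deletes floxed Tet3 in T cells (Tet3 flx/flx). WT (5 libraries) held the same cells of wild type mice, and in both primary groups the cells were sorted as CD4+ CD25- TCRb+ and negative for the aGalCer CD1d tetramer that marks invariant natural killer T cells. TX2 replicates 5 to 7, TX1 replicate 3 and DKO replicate 2 were female, all others were male, and DKO replicates 4 and 5 were labelled young. TRB tables of DKO replicate 5 and of WT replicates 2 and 5 were not analysed here, so TRB values rest on 18 libraries.

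During V(D)J recombination the ends of V, D and J segments are trimmed and extended by untemplated bases, so that many joins fall out of frame. A T cell can keep such a failed join on one chromosome and a working one on the other. Alpha joining goes on at both alleles of a cell, whereas beta joining is halted by feedback once a working chain is made (allelic exclusion). Transcripts with an early stop are subject to nonsense-mediated decay, and receptor transcripts are a classical substrate of that pathway.

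The sequences that the transfer libraries turn on are the out-of-frame joins that made up at least 1% of a chain's reads beside a leading productive receptor. They are printed here over the CDR3, 5′ to 3′, with capitals for the bases between the aligned end of V and the aligned start of J, which hold untemplated bases and, in TRB, the D segment. The TRA locus lies on chromosome 14 and the TRB locus on chromosome 6. Joins of clones shared between libraries come first, with the leading join below its companion. The TRB companion of TX1 replicate 2 has no capitals because no base lies between its V and J.
TX2 replicates 1 to 4, companion TRAV5-4/TRAJ24: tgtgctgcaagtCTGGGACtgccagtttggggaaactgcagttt
TX2 replicates 1 to 4, leading TRAV9N-3/TRAJ23: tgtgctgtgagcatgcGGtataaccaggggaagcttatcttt
TX2 replicates 5 to 7 and TX1 replicate 3, companion TRAV6-5/TRAJ50: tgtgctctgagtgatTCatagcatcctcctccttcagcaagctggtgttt
TX2 replicates 5 to 7 and TX1 replicate 3, leading TRAV8N-2/TRAJ18: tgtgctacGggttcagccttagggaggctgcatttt
TX2 replicates 5 to 7 and TX1 replicate 3, companion TRBV4/TRBJ2-5: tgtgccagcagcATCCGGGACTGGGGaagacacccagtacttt
TX2 replicates 5 to 7 and TX1 replicate 3, leading TRBV13-2/TRBJ2-3: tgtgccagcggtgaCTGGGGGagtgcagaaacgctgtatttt
TX1 replicate 1, companion TRAV21/DV12-TRAJ49: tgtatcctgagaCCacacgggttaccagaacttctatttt
TX1 replicate 1, lesser companion TRAV6-6/TRAJ43: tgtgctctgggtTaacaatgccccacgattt
TX1 replicate 2, companion TRAV7D-4/TRAJ13: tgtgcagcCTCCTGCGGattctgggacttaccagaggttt
TX1 replicate 2, companion TRBV13-2/TRBJ2-5: tgtgccagcggtggacacccagtacttt
TX1 replicate 4, companion TRAV7-5/TRAJ31: tgtgcagtgCcaataacagaatcttcttt
TX1 replicate 4, companion TRBV15/TRBJ2-4: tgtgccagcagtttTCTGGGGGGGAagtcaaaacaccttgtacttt

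None of these companions has a length divisible by 3. The TRAV5-4 companion of TX2 replicates 1 to 4 is 44 bases long, the TRAV6-5 companion 50 and the TRBV4 companion 43, against 42 bases for the leading TRAV9N-3 join and 36 for the leading TRAV8N-2 join.

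TX2 replicates 1 to 4 carried the same leading TRA and the same leading TRB, and each had the same out-of-frame TRA companion. The TRAV5-4/TRAJ24 companion took 4.43, 4.84, 4.13 and 4.23% of TRA reads in TX2 replicates 1, 2, 3 and 4. The leading TRAV9N-3/TRAJ23 join took 95.3, 95.1, 95.7 and 95.7% in the same libraries. The 95% binomial intervals of the companion (exact Clopper-Pearson, counting error only) lay between 3.65 and 5.40%, and the intervals of the 4 libraries overlapped. No TRB companion was seen in them. The leading TRBV13-3/TRBJ1-1 join held 99.7 to 99.97% of TRB reads, and nonproductive TRB joins numbered 0 of 5820, 2 of 6280, 2 of 7145 and 1 of 7569 reads. The 0 of 5820 reads in TX2 replicate 1 has an upper interval bound of 0.0634%.

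TX2 replicates 5 to 7 and TX1 replicate 3 shared another clone, with a nonproductive companion in both chains. The TRAV6-5/TRAJ50 companion, out of frame and also with a stop codon, took 14.2, 16.8 and 11.7% of TRA reads in TX2 replicates 5, 6 and 7 and 15.9% in TX1 replicate 3. The TRBV4/TRBJ2-5 companion took 10.4, 9.40 and 9.72% of TRB reads in TX2 replicates 5, 6 and 7 and 10.7% in TX1 replicate 3. Both companions were thus present after the first and after the second transfer at shares of the same order. The TRA companion's interval in TX2 replicate 7, 10.6 to 12.9%, overlapped neither that in TX1 replicate 3, 14.5 to 17.3%, nor those in TX2 replicates 5 and 6, 13.0 to 15.3% and 15.4 to 18.2%. The spread within TX2 thus took in the TX1 value. The TRB intervals of the 4 libraries all overlapped, from 8.68 to 11.4%. Because clones are shared between libraries, values of TX2 are given without a test.

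The other first-transfer libraries each had their own receptors. In TX1 replicate 2 the TRAV7D-4/TRAJ13 companion held 24.5% of TRA reads, the highest share of a nonproductive join in any library, and the TRBV13-2/TRBJ2-5 companion held 5.83% of TRB reads. In TX1 replicate 4 the TRAV7-5/TRAJ31 companion held 11.5% of TRA reads and the TRBV15/TRBJ2-4 companion 14.1% of TRB reads. TX1 replicate 1 differed, since it had 2 nonproductive TRA joins past 1%, TRAV21/DV12-TRAJ49 at 9.79% and TRAV6-6/TRAJ43 at 1.24%, and no nonproductive read among 7980 in TRB (upper bound 0.0462%). It also had a second productive join in both chains, at 5.51% of TRA reads and 8.65% of TRB reads. The tables do not pair sequences within a cell, so whether that library held more than 1 clone, and which companion belongs to which leading join, was not tested.

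**Figure D1:**
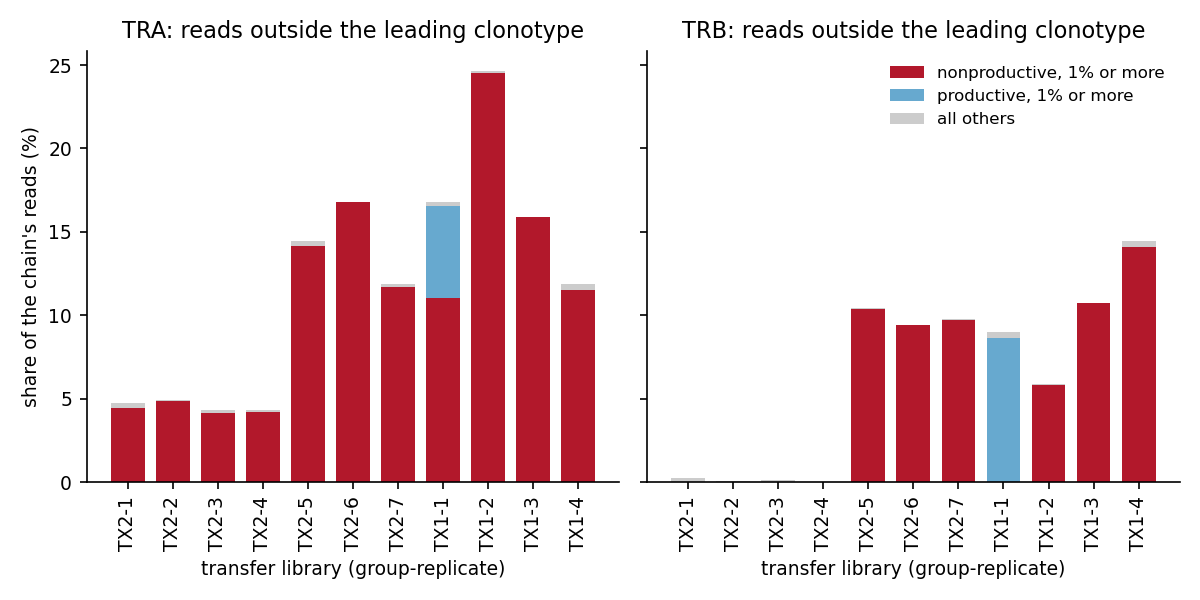
Share of a chain's reads (%) outside the leading clonotype in each transfer library, for TRA on the left and TRB on the right, with nonproductive joins of at least 1% in red, further productive joins of at least 1% in blue and all other clonotypes in grey. The largest nonproductive TRA companion of each library holds 4.13 to 24.5%, and the lesser one of TX1 replicate 1 holds 1.24%. TRB companions are absent in TX2 replicates 1 to 4 and TX1 replicate 1.

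Set against its own leading join, the companion gave 4.32 to 5.09 reads per 100 leading TRA reads in TX2 replicates 1 to 4, and 13.2 to 20.2 in the 4 libraries of the TRAV6-5 clone. TX1 replicate 2 reached 32.6 reads per 100 leading TRA reads. In TRB, companions gave 10.4 to 12 reads per 100 leading reads in the 4 libraries with TRBV4, 6.19 in TX1 replicate 2 and 16.5 in TX1 replicate 4. The leading join was productive in both chains of all 11 transfer libraries.

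No companion sequence was found in a library outside its own clone. Leading productive joins were found elsewhere at trace level. The leading TRB join of TX2 replicates 1 to 4 had 11 reads in TX1 replicate 4, and the leading TRA join had 6 reads there, 1 read in DKO replicate 5 and 2 reads in WT replicate 4. The leading TRA join of TX2 replicates 5 to 7 had 1 read each in DKO replicate 4, DKO replicate 5 and WT replicate 5. Their leading TRB join had 1 read in WT replicate 4. All libraries with such traces are numbered 4 or 5, and the origin of the traces was not tested. Companions of these clones gave 4.32 to 20.2 reads per 100 leading TRA reads. At so few leading reads they would mostly go unread, so their absence there cannot be read further. Beyond the companions, the nonproductive joins of the transfer libraries came to at most 7 TRA reads and 2 TRB reads per library.

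V genes of the companions were also read in the gene counts, which come from the same RNA and take in the whole V exon and not only the junction. Levels are given as CPM, which are reads scaled by the library's total of gene reads after adjustment of that total by its TMM normalisation factor. Trav5-4 (chr14:53704007-53704514, plus strand, GRCm38) had 18.5, 18.9, 18.8 and 19.9 CPM in TX2 replicates 1 to 4 and no read in TX2 replicates 5 to 7. Trav6-5 (chr14:53491115-53491622) had 12.1, 10.7 and 9.47 CPM in TX2 replicates 5 to 7 and 11.4 CPM in TX1 replicate 3, against at most 0.650 CPM in the other transfer libraries. Among the transfer libraries both genes were thus highest in those that carried the companion using them. Trav21-dv12 (chr14:53875984-53876752) had 19.0 CPM in TX1 replicate 1 and Trav7-5 (chr14:53530786-53531313) had 18.8 CPM in TX1 replicate 4. Neither had a read in any other transfer library. Trbv15 (chr6:41141188-41141658) had 32.0 CPM in TX1 replicate 4 and at most 0.212 CPM in the other transfer libraries. Trbv4 (chr6:41059394-41059886) had 0.641, 0.786 and 0.322 CPM in TX2 replicates 5 to 7 and 1.08 CPM in TX1 replicate 3, which are 19, 25, 10 and 32 reads, and no read in the other transfer libraries. The TRBV4 companion held 658, 581, 597 and 791 junction reads in TX2 replicates 5 to 7 and TX1 replicate 3. Trbv4 gene reads were thus far fewer than junction reads, so its levels are uncertain, and the reason was not tested. Segments with near-identical copies are uncertain in these counts. Trav9n-3, the leading V of TX2 replicates 1 to 4, had no read in any of the 21 libraries. Trav6-6, the V of the lesser TRA companion of TX1 replicate 1, had no read in that or any other transfer library.

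**Figure D2:**
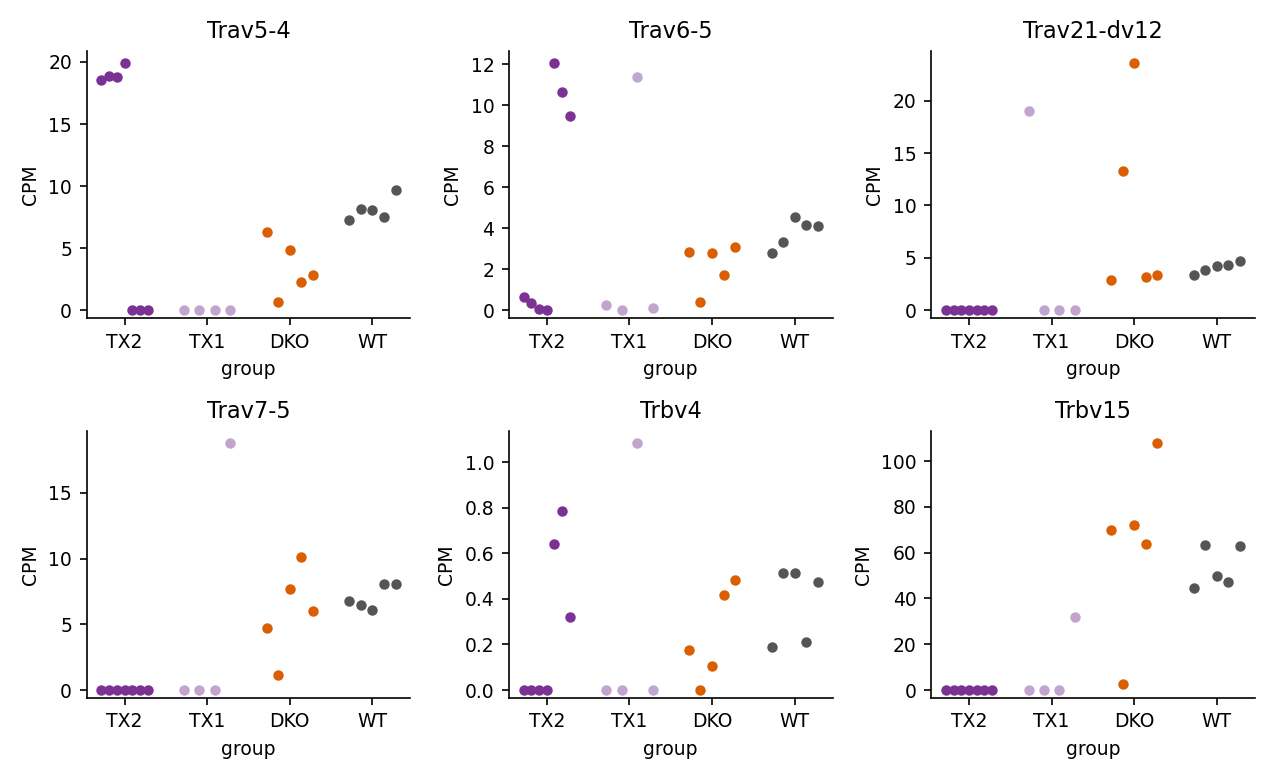
CPM of 6 V genes used by nonproductive companions (Trav6-6, without a read in any transfer library, and Trav7d-4 are not drawn), with 1 point per library in replicate order within TX2, TX1, DKO and WT. Each gene has reads in the transfer libraries that carry its companion, such as 18.5 to 19.9 CPM of Trav5-4 in TX2 replicates 1 to 4, and none or nearly none in the other transfer libraries.

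The 2 constant genes of the beta chain were read beside the beta joins, since a join to a TRBJ1 segment is spliced to Trbc1 and a join to TRBJ2 to Trbc2, and a TRBJ2 join removes the TRBJ1 segments and Trbc1 from its chromosome. In the 6 transfer libraries with a TRB companion, leading join and companion both used TRBJ2, and Trbc1 stood at 0.371, 0.315 and 0.515 CPM in TX2 replicates 5 to 7 and at 0.212, 0.102 and 3.15 CPM in TX1 replicates 2, 3 and 4. Those libraries had 674 to 852 CPM of Trbc2. Trbc1 was thus near 0 in these 6 libraries. TX1 replicate 1 also had 2 leading TRBJ2 joins, both productive, and differed. In TX1 replicate 1, which had no nonproductive TRB read, 8 of 7980 TRB reads used TRBJ1, yet Trbc1 stood at 834 CPM beside 1113 CPM of Trbc2. In TX2 replicates 1 to 4, 0 to 5 TRB reads used TRBJ2, while Trbc2 stood at 849, 833, 998 and 875 CPM and Trbc1 at 1506, 1529, 2589 and 2171 CPM. The 5 libraries without a TRB companion thus held reads of a beta constant gene that few or none of their V-to-J joins used. For comparison, TRBJ1 took 27.5 to 87.1% of TRB reads in DKO libraries and 28.4 to 30.4% in WT libraries.

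The label of the cells was checked against markers. Trac was at 706 to 1788 CPM in TX2, 572 to 1204 in TX1, 1355 to 1929 in DKO and 1555 to 2646 in WT. Cd4 was at 0.633 to 2.26 CPM in TX2, at 0.135 to 1003 CPM in TX1, at 1070 to 1813 CPM in DKO and at 1448 to 1529 CPM in WT, so the defining marker was near 0 in the second-transfer libraries, which were not sorted on it. Cd8a did not pass 2.57 CPM in any group, whereas Cd8b1 stood at 29.9 to 38.8 CPM in WT, 0.221 to 4.41 in DKO, 0 in TX1 and at most 0.161 in TX2. The myeloid gene Lyz2 reached 56.7 CPM in TX2, 1.59 in TX1, 47.8 in DKO and 110.7 in WT, and the neutrophil gene Ngp reached 42.6, 0.368, 70.7 and 27.8 CPM in the same groups. For B cells, the genes Cd79a and Ms4a1 reached 36.7 and 44.0 CPM in TX2 and reached at most 5.31 CPM elsewhere. Tcrg-C1, a constant gene of the gamma chain, was at 136 to 438 CPM in TX2, 110 to 495 in TX1, 17.4 to 46.0 in DKO and 0.662 to 1.74 in WT, while Trdc of the delta chain had no read in TX2. Their part in the receptor values was not tested.

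In primary cells the question was whether the nonproductive share differs between DKO and WT. Nonproductive joins took 13.2, 9.32, 11.6, 12.9 and 13.6% of TRA reads in DKO replicates 1 to 5, against 12.4, 13.0, 13.3, 12.9 and 13.8% in WT replicates 1 to 5. The groups overlapped, with DKO replicate 2 the lowest. The means were 12.1 ± 1.74% in DKO and 13.1 ± 0.517% in WT (SD, n = 5 each), and the difference of -0.982 points did not pass the test (two-sided exact permutation test, p = 0.286, adjusted p = 0.375). Without DKO replicate 2 the difference was -0.282 points. All clonotype tests were adjusted together over 21 tests. Counted as clonotypes, nonproductive joins were 16.4, 15.3, 14.2, 15.6 and 14.9% of TRA clonotypes in DKO and 13.0, 13.9, 13.8, 13.4 and 14.9% in WT. The means of 15.3 ± 0.848% and 13.8 ± 0.722% (SD, n = 5 each) differed by 1.48 points, which did not pass after adjustment (exact permutation p = 0.0238, adjusted p = 0.0714). Tables held 229 to 2294 TRA clonotypes in DKO and 3511 to 4180 in WT. Nothing in the labels says that the libraries of a group came from separate animals, so the p-values measure the spread between libraries.

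In TRB, nonproductive joins took 3.37, 1.07, 2.50 and 2.74% of reads in DKO replicates 1 to 4 and 3.65, 3.81 and 4.07% in WT replicates 1, 3 and 4. All DKO values lay below all WT values, and the means were 2.42 ± 0.971% in DKO (n = 4) and 3.85 ± 0.212% in WT (n = 3). The exact permutation p of 0.0571 is the smallest that 4 against 3 libraries allow, and the adjusted p was 0.133. The TRB clonotype share was 5.31 ± 1.45% in DKO and 3.93 ± 0.272% in WT (exact permutation p = 0.171, adjusted p = 0.300), so the means of reads and of clonotypes lay in opposite directions. Over joins under 1% of reads the nonproductive TRB share was 4.48, 9.60, 3.21 and 4.18% in DKO replicates 1 to 4. In WT replicates 1, 3 and 4 it was 3.65, 3.81 and 4.07%, so only DKO replicate 3 lay below all WT values. The leading TRB join held 6.4 to 77.8% of TRB reads in DKO and 0.15 to 0.78% in WT. The part of expanded productive joins in the read share was not tested. In bulk RNA, fewer cells with such a join and less RNA per cell cannot be told apart.

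**Figure D3:**
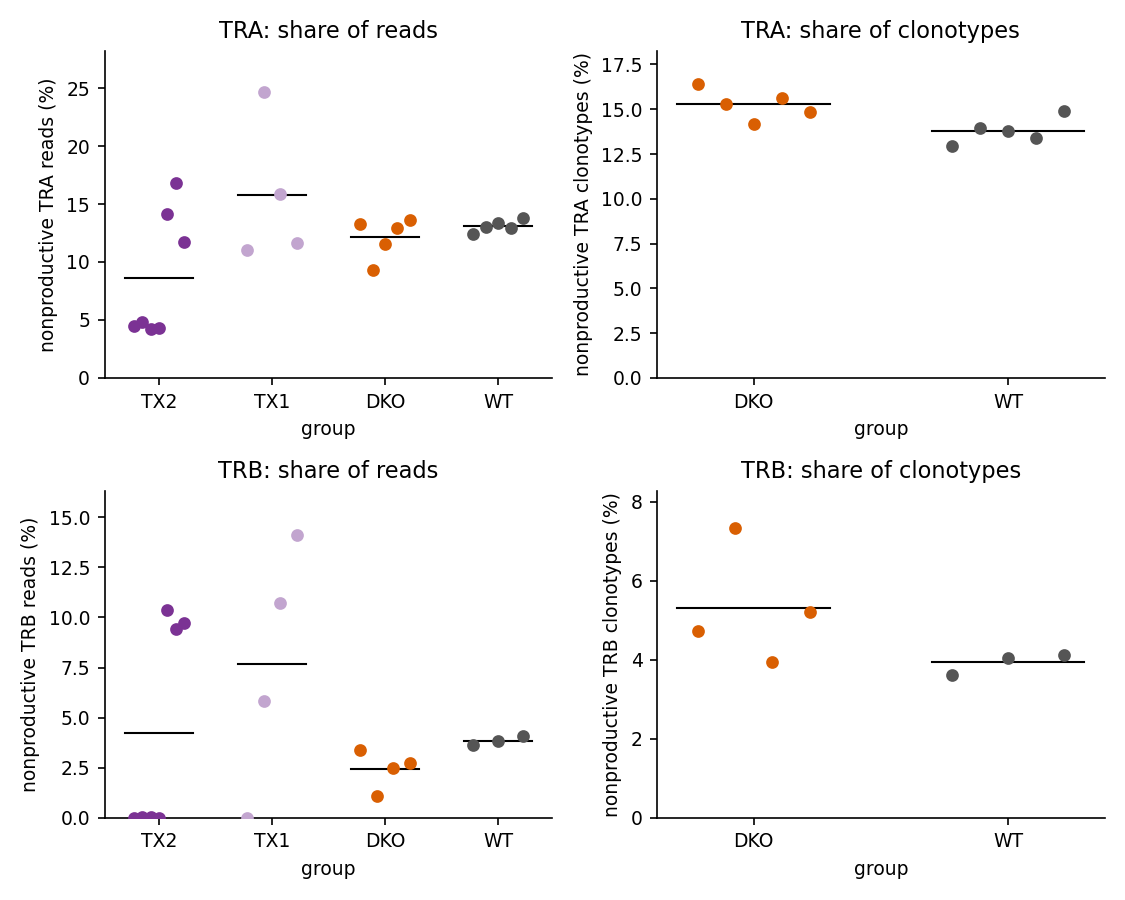
Nonproductive share (%) of reads in TX2, TX1, DKO and WT on the left and of clonotypes in DKO and WT on the right, for TRA above and TRB below, with 1 point per library and a line at the group mean. DKO and WT overlap in the TRA read share, with means of 12.1 and 13.1%, and do not overlap in the TRB read share, with means of 2.42 and 3.85%.

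TX1 had 11.04, 24.6, 15.9 and 11.6% of TRA reads in nonproductive joins, a mean of 15.8 ± 6.28% (SD, n = 4), against 12.1 ± 1.74% in DKO (n = 5, exact permutation p = 0.254, adjusted p = 0.367). The difference of 3.67 points was 0.724 points without TX1 replicate 2. TX1 had 0, 5.84, 10.7 and 14.1% of TRB reads, a mean of 7.67 ± 6.14%, against 2.42 ± 0.971% in DKO (n = 4 each, exact permutation p = 0.200, adjusted p = 0.323). Neither passed the test. Shares of clonotypes rest on 2 to 11 TRA clonotypes per TX1 library and are therefore not read further. In TX2 the TRA read share was 4.20 to 4.86% in replicates 1 to 4 and 11.7 to 16.8% in replicates 5 to 7.

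TRB was set against TRA within the 7 primary libraries with both tables. The nonproductive read share averaged 3.03 ± 1.03% in TRB and 12.2 ± 1.42% in TRA (SD, n = 7), and the clonotype share 4.72 ± 1.27% in TRB and 14.5 ± 1.28% in TRA. The mean differences of -9.21 and -9.81 points each had an exact sign-flip permutation p of 0.0156, the smallest that 7 pairs allow, and an adjusted p of 0.0556, which misses the threshold of 0.05. TRB lay below TRA in 7 of 7 libraries for both measures. Tables were also thinned to equal depth within each chain, 4581 reads in TRA and 5586 in TRB, so depth still differed between the chains. There, with fewer tests adjusted together, the differences were -9.17 and -9.74 points (sign-flip permutation test, adjusted p = 0.0476).

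Frame-shifted joins made up nearly all nonproductive clonotypes. Over DKO and WT together, 3766 TRA joins were out of frame and 59 were in frame with a stop, and in TRB 796 were out of frame and 56 in frame with a stop. Of the out-of-frame joins, 714 in TRA and 85 in TRB also carried a stop mark in their translation. That translation reads from both ends up to the frame shift, so the mark can miss a stop in the V frame. The TRAV10/TRAJ48 join of WT replicate 5, for example, has tga in its V frame and no stop mark. The frame-shifted share was 93.7 ± 1.84% in TRB and 98.7 ± 1.15% in TRA (SD, n = 7 libraries), a difference of -4.997 points with TRB below TRA in 7 of 7 libraries (exact permutation p = 0.0156, adjusted p = 0.0556). Between DKO and WT the frame-shifted share of TRA was 99.0 ± 1.22% and 98.3 ± 0.492% (n = 5 each), and that of TRB was 94.4 ± 2.04% (n = 4) and 92.8 ± 1.33% (n = 3). The adjusted exact permutation p was 0.367 for TRA and 0.401 for TRB.

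Lengths of the out-of-frame joins left a remainder of 1 or 2 after division by 3 at similar rates, with a remainder of 1 in 53.1% of TRA joins and 51.8% of TRB joins. Among TRA joins that were out of frame and also carried a stop mark, 78.9% had a remainder of 1, against 47.1% of those without the mark. In TRB the same shares were 52.9% and 51.6%. Because the mark can miss stops of the V frame, these shares do not divide joins with a stop from joins without one. On average, the aligned end of V and start of J lay further apart in nonproductive than in productive joins in every primary library. The distance counts as negative where V and J overlap. Its mean was 2.36 to 3.03 bases against 1.73 to 2.19 bases in TRA. In TRB, where the D segment is included, it was 10.01 to 11.5 against 8.43 to 8.80 bases. These means include a few joins with a CDR3 of more than 80 bases. The part of those joins and of overlaps in the gap was not tested. The TRBV3/TRBJ2-6 join of WT replicate 1 had 156 bases between V and J. In DKO replicate 2, 1 of 21 nonproductive TRB joins was longer than 80 bases. All of these are descriptions without a test.

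Many of the in-frame stops of TRB came from a single V segment. TRBV4 ends in the GENCODE annotation with a stop codon as the fifth codon of the CDR3, which a productive join has to lose or alter. Its germline end is shown with that codon in capitals, above the top nonproductive joins of DKO replicate 4 and WT replicate 4, which use this segment and in which capitals mark the bases between V and J.
Trbv4 germline end: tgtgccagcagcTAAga
DKO replicate 4, TRBV4/TRBJ1-5: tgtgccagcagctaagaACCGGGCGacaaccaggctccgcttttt
WT replicate 4, TRBV4/TRBJ2-3: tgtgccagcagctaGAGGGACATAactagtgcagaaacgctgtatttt

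In DKO and WT together, 105 of 801 TRBV4 joins were nonproductive, 13.1% (95% interval 10.8 to 15.6%), against a median of 3.83% over the 22 TRBV segments with at least 30 joins. A stop stood at the fifth codon in 66 of the 105, as TAA in 54 and as TAG in 12. Without those 66 joins, 39 of 735 TRBV4 joins were nonproductive, 5.31%. TRBV4 supplied 23 of the 56 in-frame stops of TRB. The DKO replicate 4 join above held 27 reads, 0.311% of TRB reads, and the WT replicate 4 join 6 reads. The TRBV4 companion of the transferred clone is a different case, since its aligned V ends before that codon and its frame is shifted.

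Joins to V pseudogenes, segments that the annotation classes as not coding, were counted apart from joins to V genes. The nonproductive share was 61 of 119 joins (51.3%) for TRA V pseudogenes against 3764 of 26674 (14.1%) for TRA V genes, and 45 of 79 joins (57.0%) for TRB V pseudogenes against 807 of 20162 (4.00%) for TRB V genes. TRBV24 (chr6:41218091-41218557) was highest among TRBV segments with at least 30 joins, at 35 of 56 joins, 62.5% (interval 48.5 to 75.1%). TRAV8-2 (chr14:53738375-53738838) stood at 34 of 80 joins, 42.5%. All 10 joins to the pseudogene TRAJ61 (chr14:54155005-54155076) were nonproductive. A join to a pseudogene that was counted as productive is one whose CDR3 alone is in frame and free of stops. In single libraries V pseudogenes supplied 0 to 3.53% of nonproductive TRA joins in DKO and 1.61 to 2.52% in WT, and 3.96 to 6.60% of nonproductive TRB joins in DKO and 4.35 to 6.67% in WT.

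The share ran over a wide range of segments in TRA. Over 88 TRAV segments with at least 30 joins it ran from 4.05 to 48.6% with a median of 14.5%, and over 44 TRAJ segments from 8.21 to 30.5% with a median of 13.8%. The highest TRAV genes were TRAV15-1-DV6-1 at 35 of 72 joins (48.6%) and TRAV11 at 40 of 85 joins (47.1%). TRAV11 (chr14:53519303-53519859) is the V segment of the receptor of mouse invariant natural killer T cells, which the sort of the primary cells had excluded. TRAJ32 was the highest TRAJ gene, at 210 of 688 joins (30.5%). TRBJ segments were close to each other, from 3.47 to 5.53%. Joins pooled over 10 libraries are not replicates, so intervals cover counting error only.

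**Figure D4:**
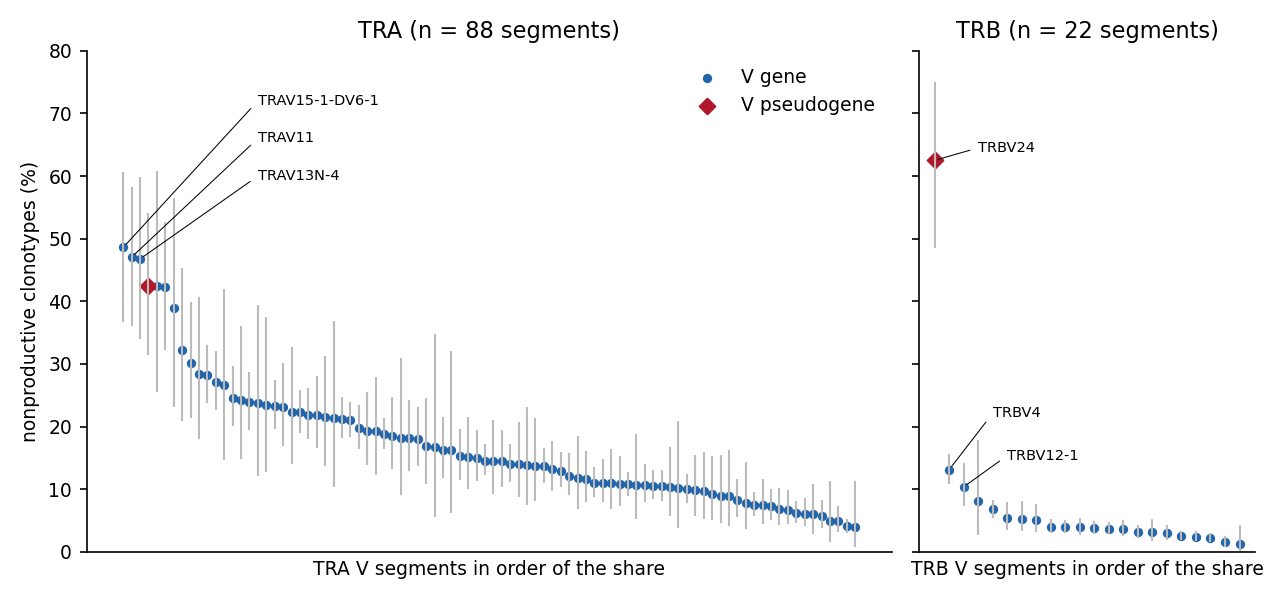
Share of joins that were nonproductive (%) for each V segment with at least 30 joins in DKO and WT together, in falling order, with 95% binomial intervals as grey lines, V genes as circles and V pseudogenes as diamonds. The pseudogene TRBV24 stands at 62.5% above all other TRBV segments, followed by TRBV4 at 13.1%, while TRAV segments run from 48.6% for TRAV15-1-DV6-1 down to 4.05%.

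Nonproductive TRA joins carried fewer reads each than productive ones in all 10 primary libraries, counted over joins under 1% of reads. DKO replicates 1 to 5 had 2.05, 1.94, 1.70, 2.21 and 1.96 reads per nonproductive TRA join, against 2.39, 2.50, 2.12, 2.68 and 2.63 per productive join. WT replicates 1 to 5 had 1.32, 1.39, 1.37, 1.504 and 1.70 reads per nonproductive join, against 1.38, 1.46, 1.42, 1.57 and 1.80 per productive join. The mean log2 ratio was -0.19 ± 0.14 (SD, n = 10), a 0.874-fold level, with an exact sign-flip permutation p of 0.00195, the smallest possible, and an adjusted p of 0.0410. It was the one clonotype comparison of the 21 that passed, and leaving out any of 9 of the 10 libraries ended the call (adjusted p of 0.0556 to 0.0820). With 9 libraries the smallest possible sign-flip permutation p rises to 0.00391, so the loss of the call does not measure stability. The log2 ratio itself stayed at -0.21 to -0.17 in these fits. The ratio is bounded by depth, because 54.3 to 73.2% of nonproductive and 52.1 to 70.8% of productive TRA joins had a single read.

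The TRA ratio was then compared between DKO and WT. The log2 ratio was -0.22, -0.36, -0.32, -0.28 and -0.42 in DKO replicates 1 to 5 and -0.07, -0.07, -0.06, -0.06 and -0.08 in WT replicates 1 to 5. The groups did not overlap, and their means of -0.32 ± 0.08 and -0.07 ± 0.01 (SD, n = 5 each) differed by -0.25, with the smallest possible exact permutation p of 0.00794 and an adjusted p of 0.0556, which misses the threshold. Reads per productive join were also higher in all DKO libraries, so genotype and the size of the joins cannot be told apart between the groups. The part of clone size in the ratio was not tested. In TRB the log2 ratio was -0.06 ± 0.25 (n = 7, 5 of 7 libraries below 0, exact permutation p = 0.469, adjusted p = 0.518). Over all joins, those of 1% of reads and more included, it was -0.73 (exact permutation p = 0.0312, adjusted p = 0.0820). DKO and WT means of the TRB ratio were -0.08 ± 0.35 (n = 4) and -0.03 ± 0.05 (n = 3), with an adjusted exact permutation p of 0.914. Over all joins the difference of DKO minus WT was -1.22 instead of -0.05 (exact permutation p = 0.0571, the smallest possible, adjusted p = 0.109). Between out-of-frame joins and in-frame stops, reads per join had a mean log2 ratio of 0.30 ± 0.52 in TRA (n = 9) and 0.36 ± 1.05 in TRB (n = 7), with adjusted exact permutation p of 0.271 and 0.401.

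**Figure D5:**
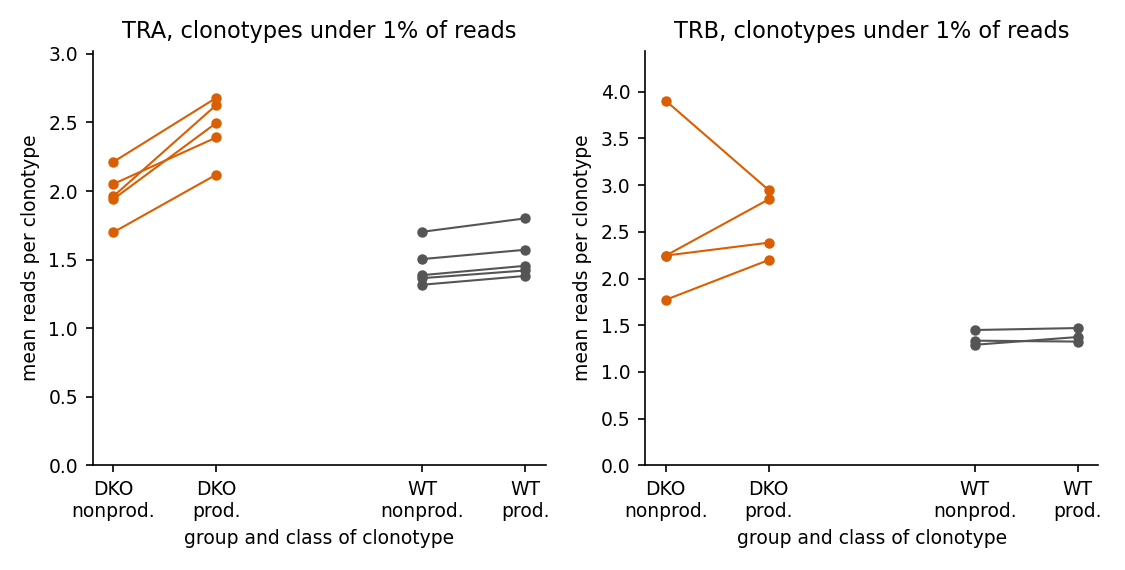
Mean reads per clonotype for nonproductive and productive joins under 1% of reads, with 1 line per library and DKO left of WT, for TRA on the left and TRB on the right. Every TRA line rises from its nonproductive to its productive point, with reads per nonproductive join of 1.70 to 2.21 in DKO and 1.32 to 1.70 in WT, whereas TRB lines run in both directions.

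The top nonproductive join of each primary library was also followed. In TRA it held 1.43, 7.88, 1.42, 4.51 and 3.70% of TRA reads in DKO replicates 1 to 5, against 0.0792, 0.154, 0.136, 0.139 and 0.235% in WT replicates 1 to 5. All DKO values lay above all WT values, as a description of joins picked for their size. In DKO replicate 2 the join stood beside a leading productive TRA join of 77.9%, which gives 10.1 reads per 100 leading reads, within the range of the transfer libraries. That library also had 13.2 CPM of Trav21-dv12, the V of this join, against 3.39 to 4.72 CPM in WT. DKO replicate 3, whose top nonproductive join uses TRAV12-1, had more of it, at 23.6 CPM. The 2 largest of these joins are shown with the same use of capitals, and the first holds none because V and J meet without a base between them.
DKO replicate 2, TRAV21/DV12-TRAJ58: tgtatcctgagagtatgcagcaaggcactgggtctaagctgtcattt
DKO replicate 4, TRAV8-1/TRAJ37: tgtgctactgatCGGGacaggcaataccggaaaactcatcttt

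The top nonproductive TRB join held 0.960, 0.655, 0.518 and 0.311% of TRB reads in DKO replicates 1 to 4 and 0.136, 0.0537 and 0.0958% in WT replicates 1, 3 and 4. No TRB join without a working frame reached 1% in a primary library.

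Nonproductive joins were rarely shared between libraries. Of 3794 distinct nonproductive TRA sequences in DKO and WT, 31 (0.817%) occurred in more than 1 library and none in more than 2, against 1910 of 20225 productive TRA sequences (9.44%), some of them in 8 libraries. Of 852 nonproductive TRB sequences none was shared, which allows a share of up to 0.352%, against 250 of 19104 productive sequences (1.31%). A smaller class offers fewer sequences to match in another library. The shares were not adjusted for class size, so nonproductive and productive shares cannot be compared directly. The largest number of shared nonproductive TRA sequences in a pair of libraries was 5, between WT replicates 2 and 5. These 2 libraries also shared 232 productive ones. The shared nonproductive ones reached 8 reads in WT replicate 2 and 18 in WT replicate 5. The 1 shared by DKO replicates 4 and 5 had 1 read in DKO replicate 4 and 235 reads in DKO replicate 5. That is the read count of the top nonproductive join of DKO replicate 5. The origin of such shared reads was not tested.

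Genes of nonsense-mediated decay were examined as a list of 28, all of which passed the filter on low counts. In DKO against WT, 3 were higher and 6 lower at an adjusted p below 0.05 in edgeR, 32.1% of the list, where 43.4% of the 13700 genes tested were called (22.7% higher, 20.7% lower). The share of the list was thus below that of all genes. Smg1, the kinase that phosphorylates the helicase Upf1, fell to 312 ± 62.8 CPM in DKO, against 530 ± 124 CPM in WT (log2 fold change -0.78 ± 0.18 SE, edgeR adjusted p = 0.00477). Casc3, a subunit of the exon junction complex, and Smg8, a regulator of Smg1, fell by 0.45 ± 0.08 and 0.43 ± 0.08 on the log2 scale (edgeR adjusted p = 0.00153 and 0.00115). Dcp2, the decapping enzyme, rose by 0.30 ± 0.08 (edgeR adjusted p = 0.0121), Gspt1, a release factor, by 0.22 ± 0.07 (edgeR adjusted p = 0.0272), and Magohb, an exon junction complex subunit, by 0.63 ± 0.23 (edgeR adjusted p = 0.0429). With single libraries left out, Magohb lost its call in 8 of 10 fits (edgeR adjusted p up to 0.101) and Gspt1 in 5 of 10 (up to 0.0783). The median log2 fold change was 0.04 over the list and -0.01 over all genes tested.

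In TX1 against DKO, 5 of the 28 were higher and 4 lower, 32.1% of the list, where 19.7% of 13954 genes were called (11.7% higher, 7.97% lower). Ruvbl1 and Ruvbl2, paired ATPases that act with the Smg1 kinase, rose by 0.87 ± 0.15 and 0.86 ± 0.19 on the log2 scale, and Rnps1, a factor of the exon junction complex, by 0.96 ± 0.18 (edgeR adjusted p = 0.00890, 0.0168 and 0.0109). The exonuclease Xrn1 fell by 0.64 ± 0.14, Smg9 by 0.63 ± 0.14 and Pnrc2 by 0.41 ± 0.13 (edgeR adjusted p = 0.0164, 0.0170 and 0.0492). With single libraries left out, Pnrc2 lost its call in 7 of 9 fits (edgeR adjusted p up to 0.139), and Ruvbl2, Xrn1 and Smg9 in 1 of 9 each, the fit without TX1 replicate 3. The count over all genes, 2743 here, ran from 1326 to 5399 in the same fits. Leaving out TX1 replicate 3 left 2 called genes of the list, and leaving out DKO replicate 4 or DKO replicate 5 left 5 each. In TX2 against DKO, 13 were higher and 6 lower, 67.9% of the list, where 51.7% of 14034 genes were called (25.6% higher, 26.1% lower). Rnps1, Ruvbl1 and Ruvbl2 rose by 1.12 ± 0.09, 1.196 ± 0.12 and 1.01 ± 0.16, and Smg9, Smg1 and Upf3a fell by 1.17 ± 0.12, 0.86 ± 0.14 and 0.77 ± 0.09 on the log2 scale (edgeR adjusted p from 3.22e-06 to 0.000349). TX2 libraries share 2 clones, so these p-values do not cover that dependence, and both transfer comparisons share the DKO libraries. The median log2 fold change of the list was 0.16 in TX1 and 0.10 in TX2, against 0.02 and -0.01 over all genes tested.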

How the data were processed

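Per the labels, total RNA of sorted spleen T cells was sequenced in bulk. Clonotype tables as deposited give read counts for each receptor sequence with a base quality score of its CDR3. Their columns have the layout of a MiXCR export, and which software wrote them is not stated in the sources. The deposited gene files hold counts of reads per gene in STAR layout, and the submitters' processing notes list DESeq2, STAR 2.7.5a and fastp 0.21.0, with GRCm38 and mm10 as builds. The unstranded column was used.

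A clonotype was nonproductive where its translated CDR3 held a frame-shift or stop mark. Tables held 2633 to 7670 TRA reads per library, and shares carry exact 95% binomial intervals, which with the limits for 0 counts (3 counts) cover counting error only, since reads are not unique molecules. Groups were compared by two-sided exact permutation tests in scipy over libraries, with Benjamini-Hochberg adjustment over 21 tests and a threshold of 0.05. Reads per join were compared over joins under 1% of reads. Gene counts (26918548 to 30730877 per library, with 16.8 to 23.4% of reads set aside as unmapped, multimapping, ambiguous or unannotated) were tested in edgeR 4.0.16 with TMM, filterByExpr and the robust quasi-likelihood test for each pair of groups, with DESeq2 as an alternative. Gene symbols and positions were read from the GENCODE M21 annotation of GRCm38 (55141 of 55487 identifiers matched). On simulated counts with 200 genes changed 4-fold, edgeR recovered 95.0% (DKO against WT), 83.5% (TX1 against DKO) and 91.0% (TX2 against DKO). No pair of libraries within a group agreed within sampling noise (chi-square per gene of at least 6.54 over 47 pairs).

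The members, lists and tests were chosen with earlier results of these data known. Clonotypes were named where they led a transfer library, reached 1% of reads in it as nonproductive joins, or were the top nonproductive join of a primary library. Up to 3 called decay genes per direction and comparison were named by fold change. Alternatives were a minimum of 2 reads, removal of joins 1 base from a join with 10 times the reads, and a base quality of 30. Others were thinning to equal depth within each chain and joins of all sizes in the read ratio. The rest were leaving out each library, a replicate block, male libraries alone and other normalisation or filters. A split of libraries numbered up to 3 from those numbered 4 and over was added after seeing the data. A marker gene of the list of other cell types is not reported here.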

Additional observations from a re-analysis of the deposited data

Results flagged for a closer look

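Libraries far from the rest of their group were sought in 105 sets of values, and chance alone flags about 1 in 20 sets. Of the 16 found, 9 were TX1 or TX2 libraries that differed in the level of a receptor gene. The V genes among them were screened because a companion of a transfer library uses them, and each TX1 library had its own receptors. An outlier among TX1 libraries was therefore built into those sets, so the count cannot be set against the chance rate. Trav21-dv12 stood at 18.98 CPM and Trbc1 at 833.9 CPM in TX1 replicate 1, Trav7d-4 at 53.78 CPM in TX1 replicate 2, Trav6-5 at 11.38 CPM and Trbv4 at 1.084 CPM in TX1 replicate 3, and Trav7-5 at 18.8 CPM and Trbv15 at 31.96 CPM in TX1 replicate 4. Traces of single reads gave Trav5-4 at 0.03382 CPM in TX1 replicate 4 and Trbv15 at 0.03418 CPM in TX2 replicate 1, against no read in the other libraries of each group. In primary cells Trbc1 stood at 1457 CPM in DKO replicate 2. Among decay genes Magohb stood at 6.196 CPM in TX2 replicate 6, Upf3a at 21.36 CPM in TX2 replicate 3, and Rnps1 at 167 CPM and Ruvbl1 at 54.64 CPM in DKO replicate 3. WT replicate 5 was low in Ruvbl1, at 17.94 CPM, and high in Xrn1, at 171.8 CPM.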

How the results depend on the processing

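Of 374 alternative values of the comparisons, 344 were counted as unchanged. For a test this meant the same direction and the same side of the threshold. For a count of called decay genes it meant a number close to the main one. With at least 2 reads per join, 2 uncalled TRB values changed sign, the frame-shifted share of DKO minus WT (-0.851 points) and the log2 ratio of out-of-frame to in-frame-stop reads (-0.11). The uncalled TRB read ratio of DKO minus WT was -0.21 to 0.04 when single libraries were left out (0.03584 without DKO replicate 4, 0.02525 without DKO replicate 3) and 0.04184 over libraries numbered up to 3, and the uncalled frame-shifted TRA share of TX1 minus DKO was -12.3 to 1.00 points and 0.295 points in the same settings. Thinning to equal depth within each chain left fewer tests to adjust. It brought past the threshold the TRA clonotype shares of DKO minus WT (1.41 points) and TX1 minus DKO (31.6 points). It also brought TRB minus TRA past the threshold for reads (-9.17), clonotypes (-9.74) and frame-shifted share (-4.85). Leaving out WT replicate 5 did the same for the TRA clonotype share (1.76 points, range over single libraries 1.19 to 1.76) and the TRA read ratio (-0.26, range -0.28 to -0.23) of DKO minus WT. The called TRA read ratio within libraries ranged from -0.21 to -0.17 with single libraries left out, where the smallest possible p rises to 0.00391.

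At a companion threshold of 5% of reads, 3 TX2 libraries kept a TRA companion instead of 7. Without a filter on low counts, 5 instead of 9 decay genes were called in DKO against WT. In TX1 against DKO the 9 called became 3 in male libraries and 2 to 11 with single libraries left out. Replicate numbers were not shown to pair the libraries, since same-numbered libraries correlated at -0.07 to 0.41 in TX1 and DKO, 0.02 to 0.43 in DKO and WT, and -0.14 to 0.07 in TX2 and DKO. With the replicate number as a block, 0 decay genes and 70 genes in all were called in TX1 against DKO instead of 9 and 2743; DKO against WT gave 9 decay genes and TX2 against DKO 17. The paired TRA read share of DKO minus WT under the block was -0.982 points (exact permutation p = 0.312); no clonotype comparison between groups was called without the block, and 5 pairs cannot give a p below 0.0625, so the block says nothing on their stability. Depth of 2633 to 7670 TRA reads, mostly 1 per join, limits ratios of reads per join.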
